A study of Mus musculus with 8 samples.

Results

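Genes that respond to beta-catenin and feed back on the Wnt pathway were followed in 8 mouse mammary tumors. The set was named as Axin2, Nkd1, Notum, Sp5, Rnf43, Znrf3, Lgr5, Apcdd1, Tnfrsf19 and Bambi. A gene was measured by the array row annotated with it and with no other gene, and of several such rows the brightest over the 8 arrays stood for the gene. By this rule 9 of the 10 genes had a value, among 14860 named genes in all, and each of the 9 had 1 such row. Znrf3 had no row with exactly 1 gene and is given no value.

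When a Wnt ligand binds Frizzled and Lrp receptors at the cell surface, beta-catenin escapes destruction, enters the nucleus and acts with TCF/LEF factors on target genes. Several of these targets encode inhibitors of the pathway itself, so their transcript levels are widely used as a readout of pathway output. In the mammary gland Wnt signaling acts on stem and progenitor cells of the epithelium, and Wnt1 is the gene first found activated by insertion of the mouse mammary tumor virus (MMTV).

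The study asked what integrin-linked kinase (ILK) adds to Wnt1 in mammary tumor formation. RNA of 4 MMTV-Wnt1 and 4 MMTV-Wnt/ILK tumors was measured on exon arrays (Affymetrix Mouse Exon 1.0 ST), each tumor on its own array. All mice were nulliparous females on an FVB background, and all carried Wnt1 under the MMTV long terminal repeat, which drives expression in mammary epithelium. The MMTV-Wnt/ILK mice carried, in addition, human ILK under the same promoter, and no age is given for the tumors used. No normal gland was among the arrays, so output of the pathway can be compared between tumors but not with tissue that lacks the transgene. Tumors were snap frozen whole, and in such bulk samples fewer cells of a type and less RNA per cell cannot be told apart.

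Values are log2 expression after robust multi-array averaging by the authors. A value depends on the probes of its row, so levels are compared between tumors for 1 gene and never between genes. The 8 arrays had medians of 6.89 to 7.23 and correlated pairwise at 0.92 to 0.97. For mouse Ilk the tumors ran from 10.53 to 10.87 (MMTV-Wnt1) and from 10.57 to 10.91 (MMTV-Wnt/ILK), and it was not tested if these probes detect human ILK. Markers of luminal mammary epithelium were bright in all tumors, with means over 7 markers of 11.04 to 11.92.

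Wnt1 was measured at 10.84, 10.01, 11.10 and 10.14 in MMTV-Wnt1 tumors 1 to 4 and at 10.91, 10.48, 10.86 and 10.99 in MMTV-Wnt/ILK tumors 1 to 4. MMTV-Wnt1 tumors 2 and 4 were lowest, and the groups overlapped. It was not tested if the probes of this row read the transgene, its own locus or both, and all relations to Wnt1 below are to this row. The group difference was 0.29 (limma SE 0.27, 95% interval -0.32 to 0.89, adjusted p = 0.91), and 0.12 and 0.48 without MMTV-Wnt1 tumors 2 and 3, respectively.

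None of the 9 feedback targets differed between the groups past the threshold. At an adjusted p under 0.05, limma called 0 of the 9 genes and 0% of all 23332 rows. At an unadjusted p under 0.05 it called 0 of the 9 genes, against 5.11% of all rows (1193 rows). An equal-variance test per row made 0 calls after adjustment and 1203 at an unadjusted p under 0.05. In 5 of the 9 genes the MMTV-Wnt/ILK mean was the higher, against 45.3% of all rows, and in 4 it was the lower, against 54.7%. The median log2 difference of the 9 genes, MMTV-Wnt/ILK minus MMTV-Wnt1, was 0.02, and that of all named genes was -0.05. The groups overlapped for each of the 9 genes, while 2.9% of all rows had groups without overlap. With 4 tumors per group the exact two-sided permutation test has 70 assignments and cannot give a p below 0.0286.

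**Figure D1:**
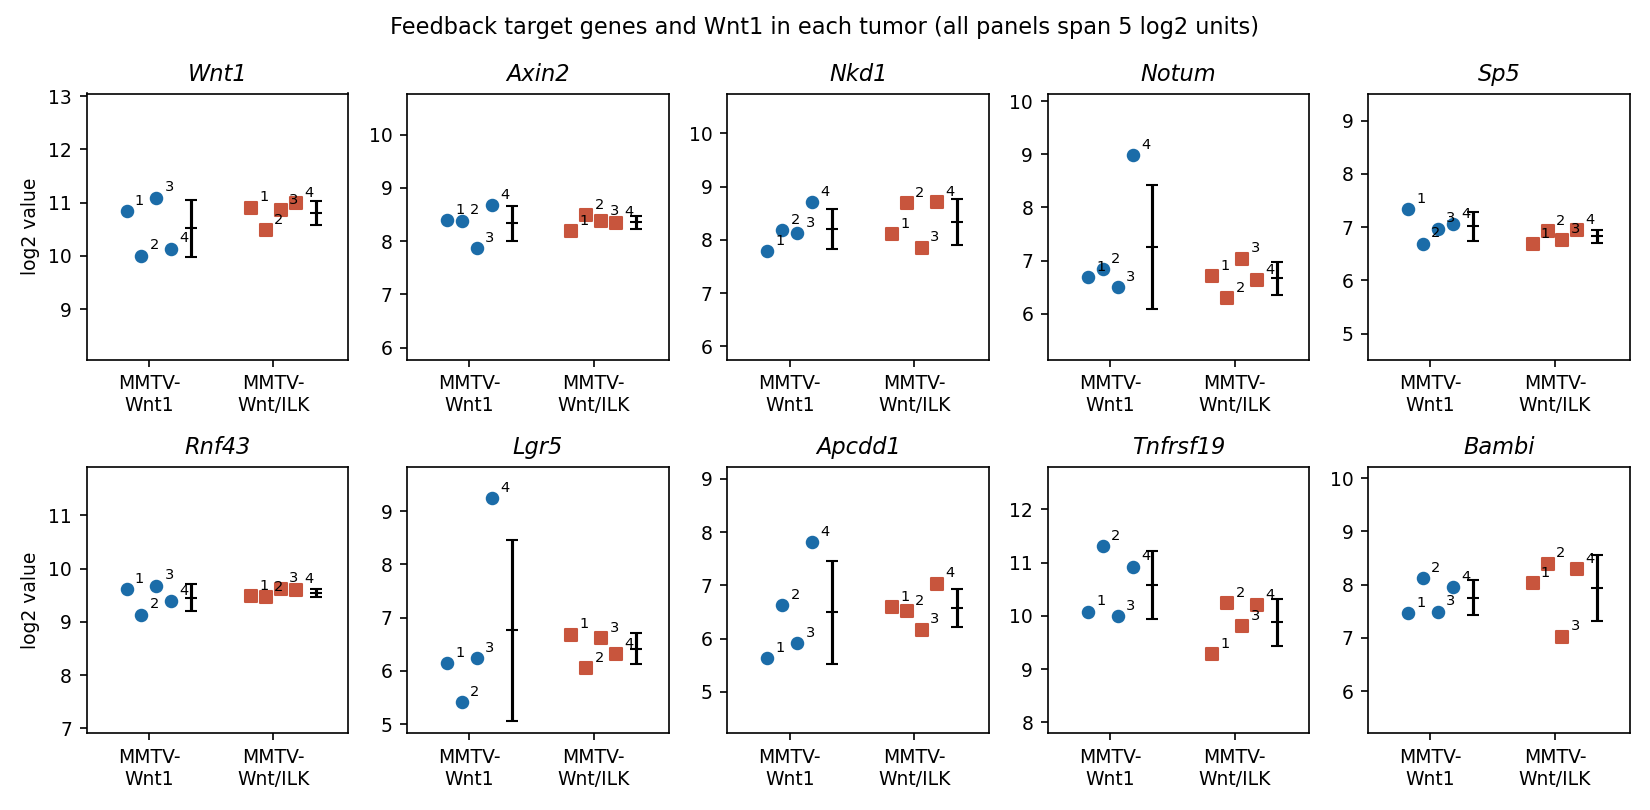
Log2 expression of Wnt1 and the 9 measured feedback targets in each tumor, with 1 point per tumor numbered 1 to 4, and bars for the group mean ± SD (n = 4). Every panel spans the same number of log2 units, and the isolated high points of Notum and Lgr5 are both MMTV-Wnt1 tumor 4.

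The secreted and surface inhibitors came first along the route of the ligand. Notum, a secreted enzyme that removes the lipid Wnt needs to bind its receptor, stood at 6.69, 6.85, 6.50 and 8.99 in the MMTV-Wnt1 tumors and at 6.71, 6.29, 7.04 and 6.63 in the MMTV-Wnt/ILK tumors. One tumor, MMTV-Wnt1 tumor 4, lay far above the others, and the remaining 7 overlapped. The group difference was -0.59 (SE 0.51, 95% interval -1.75 to 0.58, adjusted p = 0.91) and -0.01 without that tumor. Apcdd1, a membrane glycoprotein that binds Wnt and its co-receptors and holds signaling down, was measured at 5.64, 6.63, 5.92 and 7.81 and at 6.59, 6.51, 6.17 and 7.03. The highest value was again that of MMTV-Wnt1 tumor 4, and the lowest belonged to the same group. The difference was 0.08 (SE 0.44, 95% interval -0.93 to 1.08, adjusted p = 0.99), and its sign turned to -0.21, -0.12 and -0.08 without MMTV-Wnt1 tumor 1, MMTV-Wnt1 tumor 3 and MMTV-Wnt/ILK tumor 4, respectively.

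At the receptor, Rnf43 is a ubiquitin ligase that clears Frizzled from the cell surface, and Lgr5 is the R-spondin receptor that blocks such clearance and marks stem cells in several epithelia. Rnf43 read 9.62, 9.14, 9.68 and 9.39 in the MMTV-Wnt1 tumors and 9.48, 9.46, 9.62 and 9.60 in the MMTV-Wnt/ILK tumors. Its values were the most even of the 9 genes, with an SD over the 8 tumors of 0.18, and all MMTV-Wnt/ILK tumors lay inside the range of the other group. The difference was 0.09 (SE 0.16, 95% interval -0.28 to 0.45, adjusted p = 0.949) and -0.02 without MMTV-Wnt1 tumor 2. Lgr5 read 6.15, 5.41, 6.24 and 9.25 and then 6.68, 6.05, 6.61 and 6.32. MMTV-Wnt1 tumor 4 exceeded every other tumor by at least 2.57, and the value of MMTV-Wnt1 tumor 2 was below the lower quartile of its array. The difference of -0.35 (SE 0.72, 95% interval -1.99 to 1.30, adjusted p = 0.957) became 0.48 without MMTV-Wnt1 tumor 4.

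Inside the cell, Axin2 is a scaffold of the complex that marks beta-catenin for destruction and Nkd1 binds Dishevelled, the protein that relays the receptor signal. Axin2 was measured at 8.39, 8.38, 7.87 and 8.68 in MMTV-Wnt1 and at 8.19, 8.49, 8.38 and 8.35 in MMTV-Wnt/ILK tumors. Both extremes were MMTV-Wnt1 tumors, the lowest being tumor 3 and the highest tumor 4. The difference was 0.02 (SE 0.19, 95% interval -0.41 to 0.45, adjusted p = 0.994), or a fold of 1.01 with an interval of 0.752 to 1.37. The sign turned to -0.13 without MMTV-Wnt1 tumor 3 and to -0.03 without MMTV-Wnt/ILK tumor 2. Nkd1 was measured at 7.79, 8.19, 8.12 and 8.70 and at 8.10, 8.69, 7.85 and 8.71. The groups overlapped almost wholly, and 3 tumors, 1 of MMTV-Wnt1 and 2 of MMTV-Wnt/ILK, stood above the rest at nearly equal values. Its difference was 0.14 (SE 0.26, 95% interval -0.46 to 0.74, adjusted p = 0.951). Without single tumors it ran from 0.0021 (without MMTV-Wnt1 tumor 1) to 0.31 (without MMTV-Wnt1 tumor 4). In the nucleus, Sp5, a zinc-finger factor that restrains transcription of other Wnt targets, stood at 7.34, 6.69, 6.98 and 7.06 and at 6.69, 6.92, 6.77 and 6.95. The highest tumor was MMTV-Wnt1 tumor 1, and the groups overlapped, with MMTV-Wnt/ILK tumor 1 just below the lowest MMTV-Wnt1 tumor. The difference was -0.18 (SE 0.17, 95% interval -0.57 to 0.20, adjusted p = 0.91), -0.08 without MMTV-Wnt1 tumor 1 and -0.29 without MMTV-Wnt1 tumor 2.

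The remaining members, Tnfrsf19 and Bambi, encode a receptor and a decoy receptor. Tnfrsf19, also called Troy, is a member of the tumor necrosis factor receptor family that marks stem cells with Lgr5 in the intestine. It was measured at 10.08, 11.31, 9.99 and 10.92 in MMTV-Wnt1 tumors and at 9.28, 10.23, 9.80 and 10.20 in MMTV-Wnt/ILK tumors. MMTV-Wnt1 tumors 2 and 4 were above all other tumors, and MMTV-Wnt/ILK tumors 1 and 3 were below all others. The difference of -0.70 was the largest in size among the 9 genes (SE 0.34, fold 0.617, 95% interval of the fold 0.359 to 1.06), with an unadjusted p of 0.0744, an adjusted p of 0.905 and an exact permutation p of 0.171. Without single tumors it ran from -0.89 to -0.45, the latter without MMTV-Wnt1 tumor 2. Bambi is a decoy receptor that dampens signaling by transforming growth factor-beta and bone morphogenetic proteins. It read 7.46, 8.12, 7.49 and 7.96 and then 8.03, 8.39, 7.03 and 8.30. The MMTV-Wnt/ILK tumors held both the highest and the lowest value, so the groups overlapped. The difference was 0.18 (SE 0.32, 95% interval -0.54 to 0.90, adjusted p = 0.946), and ran from 0.026 to 0.48 when MMTV-Wnt/ILK tumors 2 and 3 were left out in turn.

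**Figure D2:**
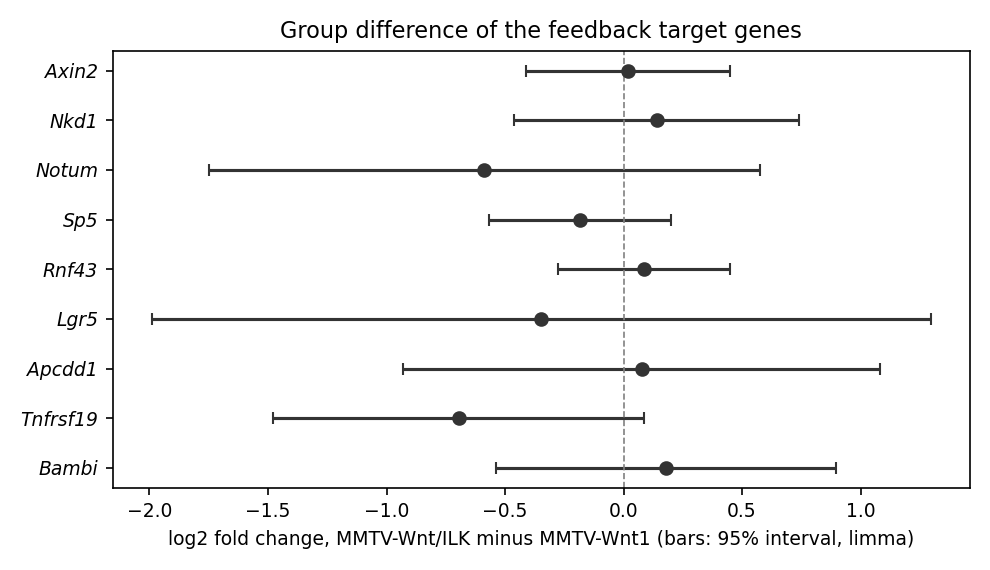
Difference of group means for each feedback target on the log2 scale, MMTV-Wnt/ILK minus MMTV-Wnt1 (n = 4 per group), with bars for the 95% interval from limma. All 9 intervals include 0, and the widest are those of Lgr5 (-1.99 to 1.30) and Notum (-1.75 to 0.58).

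Markers of several cell types differed in level between the tumors while these genes were compared. The mean of 4 hormone-sensing luminal markers ran from 6.73 to 7.13 in MMTV-Wnt1 and from 6.63 to 9.30 in MMTV-Wnt/ILK tumors. That of 6 fibroblast markers ran from 7.39 to 10.33 and from 9.81 to 10.87, and that of 7 fat markers from 5.50 to 8.36 and from 5.45 to 5.69. Means of 8 basal markers were 9.30 to 9.62 and 8.99 to 9.82, of 6 endothelial markers 8.07 to 9.57 and 8.18 to 8.68, and of 7 leukocyte markers 7.95 to 8.49 and 7.60 to 8.40. Their part in the comparison was not tested.

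The feedback targets did not share 1 relation to the level of Wnt1. Of the 9 genes, 7 had a Pearson r below 0 with Wnt1 over the 8 tumors and 2 had an r above 0. The median r was -0.39, against -0.13 over all named genes, of which 57.0% had an r below 0, and 59.7% of all rows did. In a fit of every row on the Wnt1 value, limma called 0.00429% of the 23331 other rows at an adjusted p under 0.05, which was 1 row, and 0 of the 9 genes. At an unadjusted p under 0.05 the slope was positive in 1 of the 9 genes, against 2.81% of rows, and negative in 1, against 10.3% of rows. Wnt1 itself was lower where the median of the array was higher (r = -0.74, exact permutation p = 0.0402; rho = -0.62, exact permutation p = 0.115; n = 8). Without the 2 tumors farthest from the median Wnt1 value, MMTV-Wnt1 tumors 2 and 4, that r was -0.59 (exact permutation p = 0.215). The 9 relations below were therefore also computed with arrays centred on their medians and as partial correlations given the array median, and p-values adjusted over all rows are those of the limma slopes.

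Rnf43 was the member with the highest r to Wnt1. It was lowest in MMTV-Wnt1 tumor 2, where Wnt1 was lowest, and highest in MMTV-Wnt1 tumor 3, where Wnt1 was highest. Pearson's r was 0.90 (n = 8, exact permutation p = 0.000868) and Spearman's rho 0.81 (exact permutation p = 0.0218), and 99.8% of named genes had a lower r. The slope was 0.39 log2 units of Rnf43 per log2 unit of Wnt1 (limma SE 0.16, unadjusted p = 0.0373, adjusted p = 0.356), so it did not pass the adjustment over all rows. The r was 0.90 within groups, 0.94 among MMTV-Wnt1 and 0.64 among MMTV-Wnt/ILK tumors, 0.95 on median-centred arrays and 0.81 given the array median. Leaving out single tumors gave 0.86 to 0.94, and leaving out MMTV-Wnt1 tumors 2 and 4 together gave 0.74 (exact permutation p = 0.0694).

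Tnfrsf19 ran the opposite way. It was highest in MMTV-Wnt1 tumors 2 and 4, those with the least Wnt1, and below them in every other tumor. Its r was -0.85 (n = 8, exact permutation p = 0.00873), and 2.3% of named genes had a lower r. Its rho was -0.74 (exact permutation p = 0.0458), with a slope of -1.31 (limma SE 0.32, unadjusted p = 0.00259, adjusted p = 0.208). The relation rests on those tumors, since r was -0.27 without both (exact permutation p = 0.537). It was -0.83 within groups, -0.77 on median-centred arrays, -0.71 given the array median, and -0.72 without MMTV-Wnt1 tumor 2 alone.

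Axin2, often taken as the standard readout of beta-catenin activity, had a negative r with Wnt1. Of all named genes, 11.8% had a lower r. The highest Wnt1 value and the lowest Axin2 value were both in MMTV-Wnt1 tumor 3. The r was -0.68 (n = 8, exact permutation p = 0.0525) and rho -0.83 (exact permutation p = 0.0154), with a limma slope of -0.39 (SE 0.21, adjusted p = 0.443). Without MMTV-Wnt1 tumors 2 and 4, r was -0.75 (exact permutation p = 0.124). On median-centred arrays it was -0.27, and given the array median it was -0.58.

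The other 6 genes had no relation to Wnt1 with an exact permutation p below 0.166 for r. Apcdd1 had an r of -0.55 (rho -0.33), Notum -0.52 (rho -0.45), Bambi -0.39 (rho -0.19), Nkd1 -0.35 (rho -0.12), Lgr5 -0.25 (rho 0.29) and Sp5 0.16 (rho 0.05). Exact permutation p-values of r were 0.166, 0.184, 0.335, 0.39, 0.604 and 0.711 in that order, and those of rho were 0.428, 0.267, 0.665, 0.793, 0.501 and 0.935. Without MMTV-Wnt1 tumors 2 and 4 the values of r were -0.10, 0.39, -0.38, -0.33, 0.40 and -0.02. For Lgr5 the sign depended on MMTV-Wnt1 tumor 4, without which r was 0.83.

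**Figure D3:**
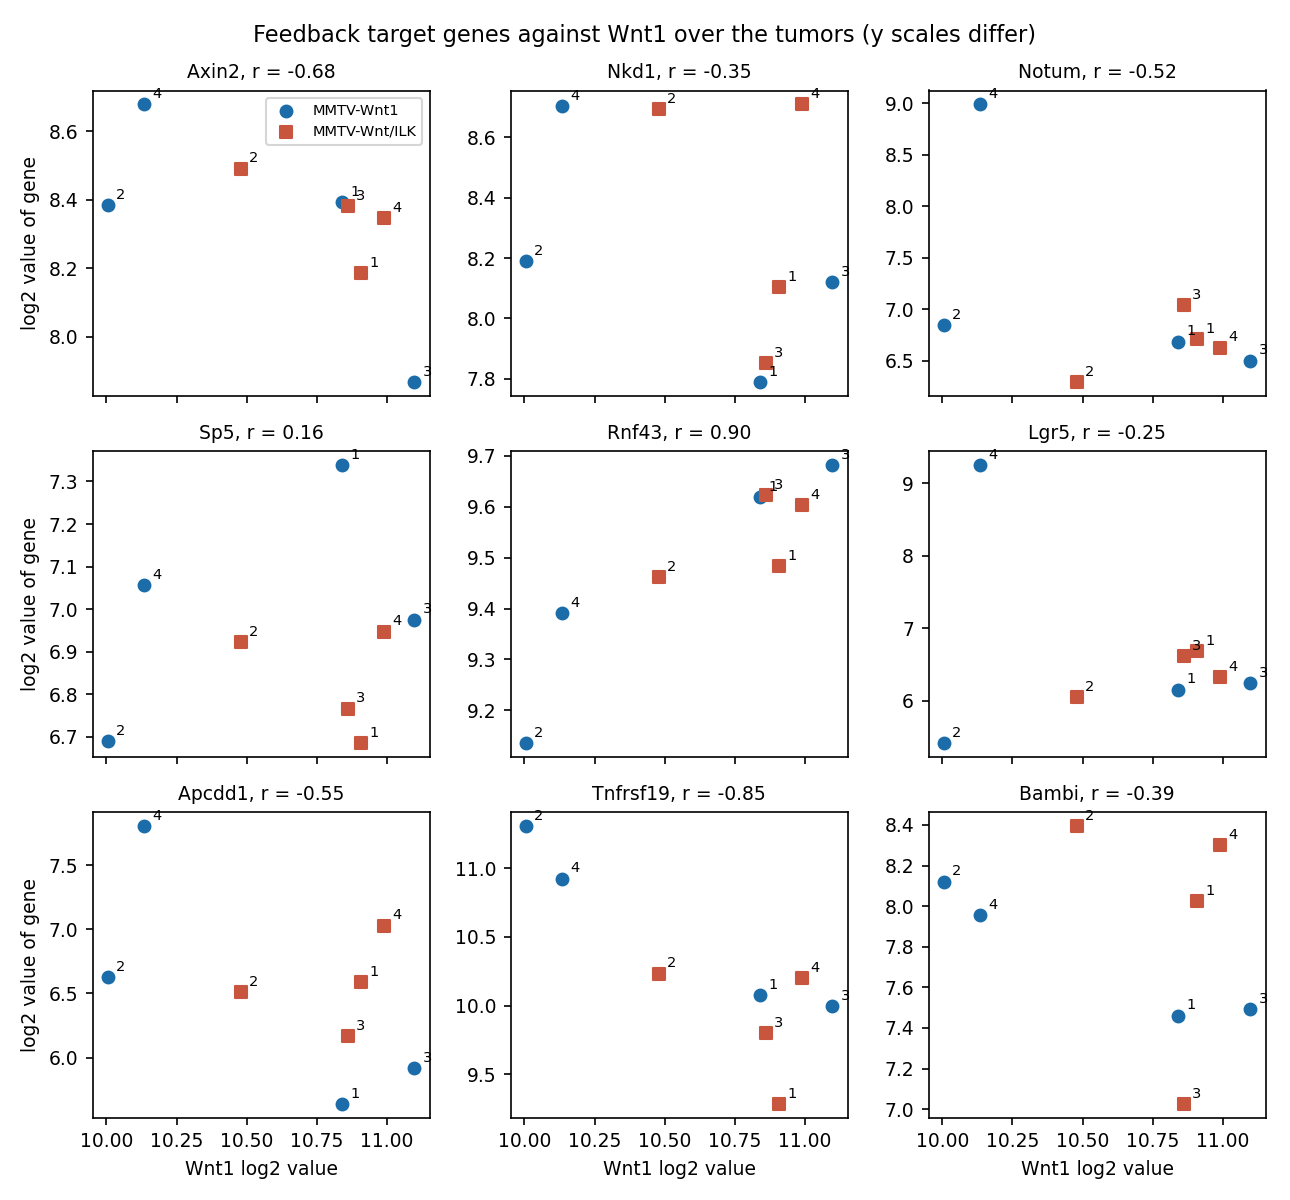
Log2 expression of each feedback target against that of Wnt1 in the 8 tumors, with points numbered by tumor within each group and Pearson's r above each panel. Rnf43 climbs with Wnt1 (r = 0.90), and Tnfrsf19 is highest in MMTV-Wnt1 tumors 2 and 4, at the left of its panel (r = -0.85).

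Some means of cell type markers moved with these relations. The mean of luminal markers had an r of 0.74 with Wnt1, 0.75 with Rnf43 and -0.78 with Tnfrsf19. The mean of fat markers had an r of -0.62 with Wnt1, -0.78 with Rnf43 and 0.69 with Tnfrsf19, and that of endothelial markers -0.53, -0.68 and 0.61. Fat markers averaged 8.36 in MMTV-Wnt1 tumor 2 and no more than 5.92 in the other MMTV-Wnt1 tumors. The mean of fibroblast markers had an r of 0.79 with Axin2 but only -0.32 with Wnt1. MMTV-Wnt1 tumor 3, with the least Axin2, had the lowest fibroblast mean. Axin2 had an r of -0.65 with luminal, 0.08 with fat and 0.04 with endothelial markers. All these are descriptions over the same 8 arrays, which share tumor composition, and their part in the relations to Wnt1 was not tested.

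With the Wnt1 value as a covariate, the group comparison of the 9 genes again gave 0 calls at an adjusted p under 0.05, as did all rows, and 0 at an unadjusted p under 0.05, against 8.82% of rows. Tnfrsf19 then differed by -0.37 (SE 0.24, 95% interval -0.93 to 0.18, adjusted p = 0.659). Apcdd1 differed by 0.39 (SE 0.41), Bambi by 0.36 (SE 0.31), Nkd1 by 0.27 (SE 0.27) and Axin2 by 0.16 (SE 0.17). Notum, Sp5, Lgr5 and Rnf43 stood at -0.32, -0.24, -0.17 and -0.03. For Rnf43 the sign differed from that of the fit without the covariate.

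Promoter sequence is shown for the members with the highest and the lowest r to Wnt1, Rnf43 and Tnfrsf19, and for Sp5. The windows run from 250 bases before to 50 bases after a RefSeq transcription start on GRCm38.p6, 300 bases in all, 5′ to 3′ on the strand of the gene. Of the 9 measured genes, 5 had a window (Axin2, Nkd1, Sp5, Rnf43 and Tnfrsf19). They were searched on both strands for the TCF/LEF core words CTTTGAA and CTTTGAT, and a match is in capitals. Rnf43 lies at chr11:87662837-87663136 (plus strand, no match), Tnfrsf19 at chr14:61037938-61038237 (minus strand, match from base 49) and Sp5 at chr2:70474673-70474972 (plus strand, match from base 147).
Rnf43: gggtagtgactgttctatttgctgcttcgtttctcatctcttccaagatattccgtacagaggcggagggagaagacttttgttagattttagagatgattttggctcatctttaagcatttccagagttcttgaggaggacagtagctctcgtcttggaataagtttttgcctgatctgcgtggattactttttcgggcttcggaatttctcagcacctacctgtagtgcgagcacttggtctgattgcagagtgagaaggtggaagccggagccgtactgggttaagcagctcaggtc
Tnfrsf19: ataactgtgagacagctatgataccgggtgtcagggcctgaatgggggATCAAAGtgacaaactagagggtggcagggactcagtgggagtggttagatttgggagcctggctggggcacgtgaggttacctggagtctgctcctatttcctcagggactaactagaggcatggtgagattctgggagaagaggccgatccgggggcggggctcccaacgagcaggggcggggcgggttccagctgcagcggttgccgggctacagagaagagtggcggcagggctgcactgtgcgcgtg
Sp5: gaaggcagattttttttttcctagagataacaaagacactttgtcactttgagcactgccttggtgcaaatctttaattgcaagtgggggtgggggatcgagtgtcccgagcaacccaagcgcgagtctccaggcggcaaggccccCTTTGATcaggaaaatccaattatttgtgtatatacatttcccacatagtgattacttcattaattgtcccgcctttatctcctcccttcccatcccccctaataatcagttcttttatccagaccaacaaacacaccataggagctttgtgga
The match of Tnfrsf19 is ATCAAAG, the reverse complement of CTTTGAT, and the other windows of Rnf43 and Tnfrsf19 and those of Axin2 and Nkd1 held none. A word of this kind was found in 2842 of 32851 mouse windows of the same length, or 8.65%. A match of letters is no evidence of binding, and its lack says only that the word is not in this window.

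The 9 genes did not move as 1 block over the tumors. Of their 36 pairs, 25 had a Pearson r above 0 and 11 below 0, with a median of 0.29 and 4 pairs over 0.7. The values describe 8 arrays that share tumor composition, no test was made of them, and no counterpart over all gene pairs is given. Notum and Lgr5 had the highest r, at 0.92, which 0.28% of named genes reached with Notum and 0.13% with Lgr5. Their Spearman rho was only 0.52, and their r was 0.13 without MMTV-Wnt1 tumor 4. Likewise the r of Notum with Apcdd1 went from 0.73 to -0.05, and that of Lgr5 with Apcdd1 from 0.70 to -0.09. Without that tumor the median over the 36 pairs was -0.06, and 16 were above 0.

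Nkd1, Apcdd1 and Bambi had an r of 0.56 to 0.79 with each other, and of 0.75 to 0.85 when MMTV-Wnt1 tumor 4 was left out. Nkd1 and Bambi had an r of 0.79 with all tumors and 0.85 without that tumor. Nkd1 and Apcdd1 had 0.79 and 0.76, and Apcdd1 and Bambi 0.56 and 0.75. Over all tumors, 1.43% of named genes had at least the r of Nkd1 and Bambi with Nkd1, and 1.37% with Bambi. For Nkd1 and Apcdd1 these shares were 1.65% and 3.7%, and for Apcdd1 and Bambi 17.48% and 10.19%. The mean of 8 basal and myoepithelial markers had an r of 0.96 with Bambi, 0.66 with Nkd1 and 0.34 with Apcdd1, or 0.98, 0.78 and 0.62 without tumor 4. That of 7 luminal markers had an r of -0.63 with Bambi, -0.54 with Nkd1 and -0.68 with Apcdd1. The mean of skeletal muscle markers had an r of -0.86 with Bambi, -0.72 with Nkd1 and -0.51 with Apcdd1. It stood at 9.04 in MMTV-Wnt/ILK tumor 3 and 8.19 in MMTV-Wnt1 tumor 1. Bambi was lowest in those tumors, at 7.03 and 7.46. The part of these markers in the co-variation was not tested.

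**Figure D4:**
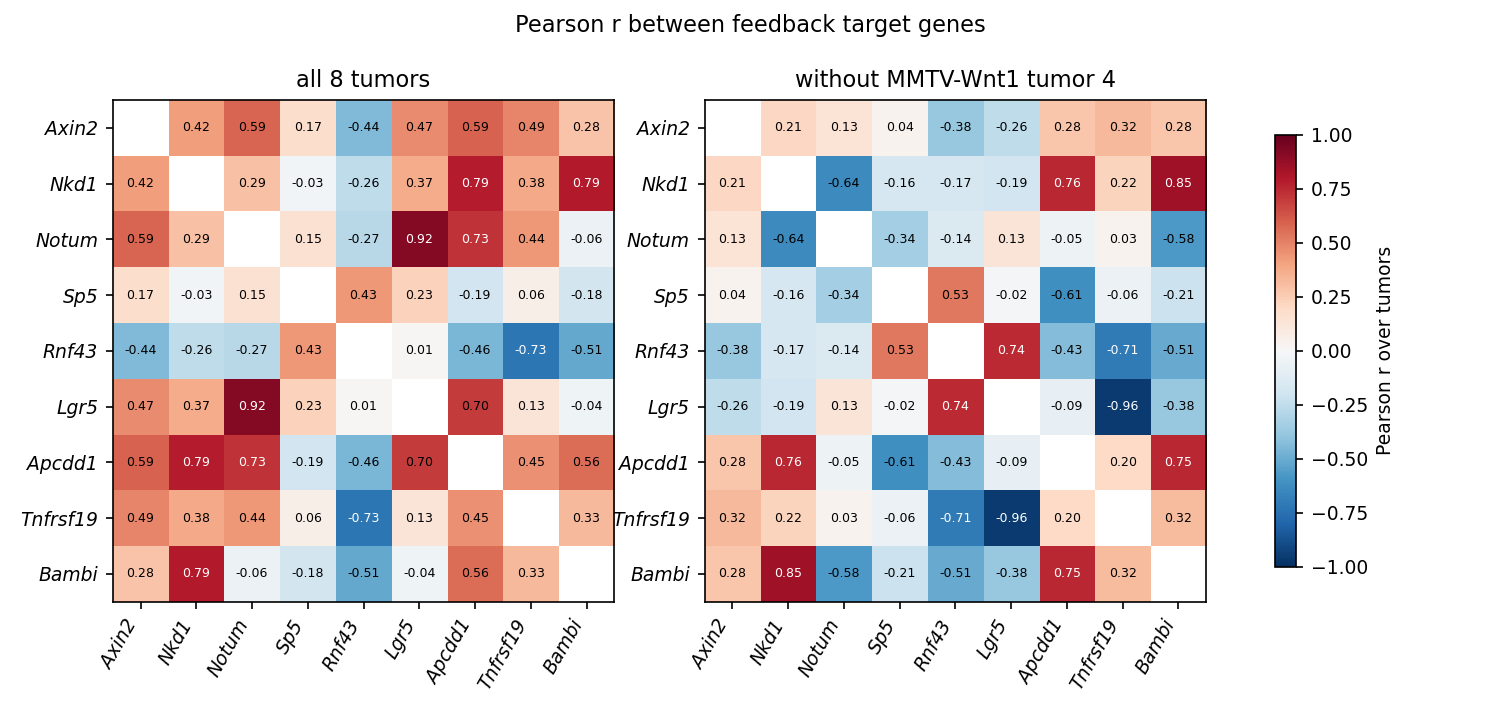
Pearson's r between the feedback targets over all 8 tumors (left) and over 7 tumors without MMTV-Wnt1 tumor 4 (right), colored from -1 to 1. The block of Notum, Lgr5 and Apcdd1 is seen at left only, and Nkd1 with Bambi has 0.79 at left and 0.85 at right.

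MMTV-Wnt1 tumor 4 was the highest of the 8 tumors for 4 of the 9 genes (44.4%), namely Axin2, Notum, Lgr5 and Apcdd1, against 17.1% of all named genes. It exceeded the next tumor by 2.57 for Lgr5, 1.95 for Notum, 0.78 for Apcdd1 and 0.19 for Axin2. A gap over 2 was found for 17 of 14860 named genes (0.114%). With each gene centred on its mean, the 9 genes averaged 0.84 in this tumor and -0.27 to 0.10 in the other 7. Their median was 0.43 in this tumor and -0.35 to 0.02 in the other 7. Its Wnt1 value of 10.14 was among the 2 lowest. Its mean of 8 basal and myoepithelial markers, 9.44, was inside the range of the other tumors (8.99 to 9.82), but single markers went both ways. Krt5, Krt14 and Oxtr were the highest of the 8 tumors, Krt14 at 11.42 against 8.01 to 9.35 elsewhere, while the contractile genes Myh11 (6.73 against 7.94 to 10.38) and Cnn1 were the lowest. The mean of 7 luminal markers was 11.21 against 11.04 to 11.92 elsewhere, with Krt18 and Elf5 the lowest of the 8 tumors and Cldn4 the 2nd highest. What part the makeup of this tumor has in the values was not tested.

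**Figure D5:**
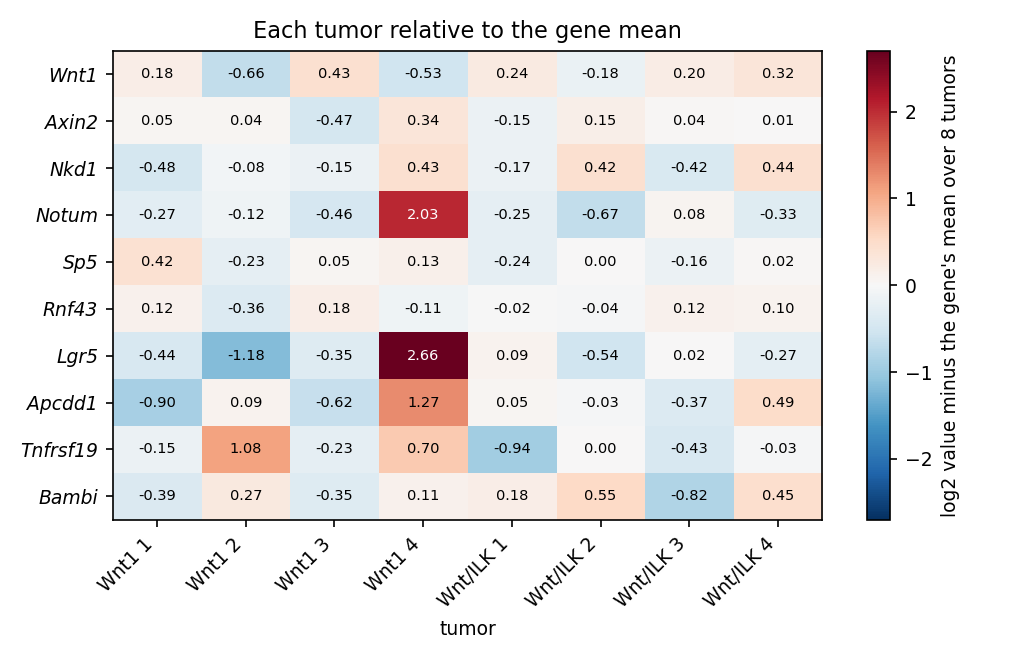
Log2 value of Wnt1 and the 9 feedback targets in each tumor minus the mean of that gene over the 8 tumors, as a color and a number. The strongest cells are Lgr5 and Notum in MMTV-Wnt1 tumor 4, whose Wnt1 value was below the mean.

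Genes closest to these profiles were sought among all named genes. The 5 with the highest r to Axin2 over the 8 tumors were D230039L06Rik (0.97), Septin9 (0.96), Marveld1 (0.95), Slc6a6 (0.95) and Kif26b (0.95). The 5 with the highest r to the mean of the centred members were Kcnmb4 (0.98), Nalcn (0.98), Pcdhb15 (0.97), Edar (0.96) and Aldh3a1 (0.96). All 5 had their maximum in MMTV-Wnt1 tumor 4, which follows from how they were chosen, since that mean is itself highest there. Edar, a receptor of skin appendage and mammary bud development, stood at 9.42 there and at 6.56 to 7.59 in the other tumors. Wnt1 had an r of -0.68 with Axin2 and -0.59 with the mean of the members.

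Other known targets of beta-catenin also showed no group difference past the threshold. Of 34 such genes 29 were measured, of which 15 were higher and 14 lower on average in MMTV-Wnt/ILK tumors. Their median log2 difference was 0.04, with 0 genes at an adjusted p and 0 at an unadjusted p under 0.05. Dkk4, a secreted inhibitor of the Wnt co-receptors, had a difference of -0.96 (SE 0.45, exact permutation p = 0.114), Mmp7, a matrix protease, -0.29 (SE 0.22) and Tiam1, an activator of Rac, -0.29 (SE 0.24). Twist1, a factor of epithelial-mesenchymal transition, differed by 0.46 (SE 0.24), the growth factor receptor gene Met by 0.35 (SE 0.25) and Myc by 0.21 (SE 0.14, exact permutation p = 0.0571). Without 1 tumor, values moved by over 1.5 times for Dkk4 (-0.55 without MMTV-Wnt1 tumor 2), Mmp7 (-0.16 without MMTV-Wnt/ILK tumor 1), Tiam1 (-0.10 without MMTV-Wnt1 tumor 4), Twist1 (0.30 without MMTV-Wnt1 tumor 1), Met (0.12 without MMTV-Wnt/ILK tumor 2) and Myc (0.13 without MMTV-Wnt/ILK tumor 3). Dkk4 was below the lower quartile of its array in 1 tumor and Mmp7 in 3. With Wnt1 these 29 genes had a median r of -0.13, as did all named genes, and 17 were below 0.

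R-spondins are the ligands of Lgr5 and keep Rnf43 and Znrf3 away from Frizzled, and 4 of them were measured. Rspo4 stood at 6.59, 6.45, 6.22 and 7.15 in MMTV-Wnt1 and at 5.47, 5.92, 6.10 and 6.19 in MMTV-Wnt/ILK tumors. All 4 MMTV-Wnt/ILK tumors were below the other group, and the nearest tumors of the groups were 6.19 and 6.22. Groups without overlap were found in 2.9% of all rows. The difference was -0.69 (SE 0.24, unadjusted p = 0.0194, adjusted p = 0.905, exact permutation p = 0.0286), and 2.21% of all rows were lower at an unadjusted p under 0.05. MMTV-Wnt/ILK tumor 1 was below the lower quartile of its array. Rspo1, Rspo2 and Rspo3 differed by 0.16, -0.02 and -0.04, with the sign of Rspo2 turning when any 1 of 5 tumors was left out, and values were below the lower quartile of the array in 4 tumors for Rspo2 and in all 8 for Rspo3. Lgr4 and Lgr6, the receptors related to Lgr5, had no row with exactly 1 gene.

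Paralogs of the members gave 3 measured genes. Axin1, the constitutive scaffold of the destruction complex, stood at 8.75, 8.65, 8.70 and 8.80 in MMTV-Wnt1 and at 8.85, 8.99, 8.81 and 9.07 in MMTV-Wnt/ILK tumors. The groups were adjacent without overlap, at 8.8048 and 8.805 for the nearest tumors, and 2.9% of all rows had groups without overlap. The difference was 0.20 (SE 0.13, limma unadjusted p = 0.159, adjusted p = 0.905). Its exact permutation p of 0.0286 is the smallest that 4 tumors per group can give. Nkd2 differed by 0.07 (SE 0.44), and the sign turned to -0.31 and -0.10 without MMTV-Wnt1 tumors 1 and 3, respectively. Sp8 differed by -0.22 and was below the lower quartile on 7 arrays.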

How the data were processed

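The deposited table holds log2 values of 23332 rows for 8 tumors, which the authors made with the RMA algorithm of ArrayAssist (background correction and probe-set summary) and quantile normalization between chips. The labels and the methods name different versions of that program. The log base was inferred from the range of the values, and a genome build is not given in the sources used here. Array medians differ despite the stated normalization. The number of arrays limits the precision.

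Groups and tumor numbers came from the labels, and the number of sample columns left unused was 0. Rows were named through the platform annotation (14996 rows with 1 gene, 1019 with several, 7317 with none), and 14833 of 14860 gene names were found in a RefSeq table of GRCm38.p6, used for names only. Wisp1 was matched as Ccn4 by its synonym. Identical values were found in 0 pairs of arrays.

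All rows entered limma (version 3.58.1, under R 4.3.3) through lmFit and eBayes, unfiltered and two-sided, with Benjamini-Hochberg adjustment over all rows, for the group difference, the slope on the Wnt1 value, and both together. Exact two-sided permutation tests used the 70 assignments of the tumors or, for r and rho, all 40320 pairings (scipy 1.17.1). These fits were tested on simulated data first. The methods describe the tumors as independent.

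The feedback targets and all other lists were chosen with earlier results of these data known. The text names all members and Wnt1, up to 3 genes of each other list with the smallest unadjusted p in each direction, the 5 genes with the highest r to Axin2 and to the mean of the members, and marker genes that move with a member. Genes outside this rule were named after their values were seen. Marker lists (luminal, hormone-sensing luminal, basal and myoepithelial, fibroblast, fat, endothelial, leukocyte, skeletal muscle) are given as means. The mean of 4 keratinizing skin markers, not given above, ran from 5.17 to 6.22 in MMTV-Wnt1 and from 4.90 to 5.66 in MMTV-Wnt/ILK tumors.

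Alternatives for the fit were an equal-variance test (named in the series' deposited design text), a robust variance trend, array weights, the tumor number as a block and the omission of each tumor. Alternatives for the values were median-centring, a second quantile normalization, the omission of the dimmest 25% of rows, rows with 1 gene only, the mean of a gene's rows, Wnt1 as a covariate, rho, within-group r, and r without 2 tumors. A partial r given the array median and pair r without MMTV-Wnt1 tumor 4 were added after seeing the data.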

Additional observations from a re-analysis of the deposited data

Results flagged for a closer look

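Among 68 groups of 4 tumors examined for 1 tumor far from the other 3, 8 were found. In independent groups of normal values chance finds about 1 in 20. These groups share the same 8 arrays, so no excess over chance can be read from the count. Among the feedback targets only Notum was found, at 8.99 in MMTV-Wnt1 tumor 4 against 6.50 to 6.85 in the other tumors of the group. Rspo2 was at 6.03 in MMTV-Wnt/ILK tumor 2 and at 5.43 to 5.51 in the others.

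The mouse Ilk row was at 10.87 in MMTV-Wnt1 tumor 2 against 10.53 to 10.59. Of the marker means, fibroblast markers were at 7.39 in MMTV-Wnt1 tumor 3 against 10.12 to 10.33, and MMTV-Wnt1 tumor 2 had fat markers at 8.36 against 5.50 to 5.92 and leukocyte markers at 8.49 against 7.95 to 8.01. Skeletal muscle markers were at 8.19 in MMTV-Wnt1 tumor 1 against 6.17 to 6.39 and at 9.04 in MMTV-Wnt/ILK tumor 3 against 6.09 to 6.28.

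Genes named for their likeness to the mean of the feedback targets are not in that count, since the mean is itself highest in MMTV-Wnt1 tumor 4 and a high value there follows from how they were chosen. Of these, Kcnmb4 was at 7.23 in that tumor against 6.26 to 6.34 in the rest of its group, Nalcn at 8.73 against 4.90 to 5.36, and Aldh3a1 at 7.44 against 5.48 to 5.65. Edar was at 6.62 in MMTV-Wnt/ILK tumor 3 and at 7.43 to 7.55 in the other tumors of that group.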

How the results depend on the processing

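No feedback target was called under any of the alternatives tried, and their median difference ran from -0.13 to 0.14 over the fits without 1 tumor. Over all rows, 13 were called without MMTV-Wnt/ILK tumor 2, all higher, and 0 without any other tumor. The number of feedback targets with a higher mean was 3 with array weights and ran from 3 to 6 without single tumors. The sign of small differences turned for Axin2 (-0.057 with array weights, -0.001 on median-centred arrays), Apcdd1 (-0.19) and Nkd2 (-0.34) with array weights, and Rnf43 (-0.032 with Wnt1 as a covariate). Without single tumors the differences ran from -0.13 to 0.14 for Axin2, -0.021 to 0.16 for Rnf43, -0.80 to 0.48 for Lgr5, -0.21 to 0.51 for Apcdd1, -0.16 to 0.10 for Rspo2 and -0.31 to 0.42 for Nkd2. The r with Wnt1 turned sign for Nkd1 (0.26) and Bambi (0.033) given the array median, for Notum without the 2 tumors farthest from the Wnt1 median (0.39), for Sp5 (-0.016 without those tumors, -0.34 given the array median) and for Lgr5 (rho 0.29, 0.40 without those tumors). Without single tumors it ran from -0.18 to 0.35 for Sp5 and from -0.76 to 0.83 for Lgr5. The cause was not tested. The labels do not say that a tumor number marks a shared litter or batch. Same-numbered tumors deviated together at r of 0.107, 0.132, 0.155 and -0.004, and 5 of 8 tumors correlated best with their own number, so a weak pairing of some tumors is possible but was not taken as established. With the tumor number as a block, 0 rows were called, 1485 had an unadjusted p under 0.05 in place of 1193, and no call changed. Of the other values for single genes, 409 group differences and 119 values of r kept their sign and their side of the threshold. A further 4 values of r were classed as weaker and 3 as stronger, with the sign kept. Lgr5, Rspo4 and Dkk4 were below the lower quartile of their array in 1 tumor, Mmp7 in 3, Rspo2 in 4, Sp8 in 7 and Rspo3 in 8, and differences of such dim values are the least certain.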

Other observations

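Jag1, a Notch ligand and beta-catenin target, was chosen after its values were seen. It read 9.18, 9.93, 8.22 and 9.60 in MMTV-Wnt1 tumors 1 to 4 and 8.97, 9.36, 9.09 and 8.89 in MMTV-Wnt/ILK tumors 1 to 4, in exactly the reverse order of Wnt1 over all 8 tumors (rho = -1.0, exact permutation p = 4.96e-05). Pearson's r was -0.91 (exact permutation p = 2.48e-05, the smallest the pairings can give), -0.77 on median-centred arrays, -0.87 given the array median and -0.82 without MMTV-Wnt1 tumors 2 and 4 (exact permutation p = 0.075). The limma slope was -1.13 (SE 0.23, unadjusted p = 0.000867, adjusted p = 0.165). Of the 29 other beta-catenin targets, 6 had a negative and 1 a positive slope at an unadjusted p under 0.05, against 10.3% and 2.81% of all rows. Beside Jag1 the 6 were Mmp14 (r = -0.85, and -0.87 without the same tumors), Btrc (-0.73 and -0.77), Wif1 (-0.68 and -0.77), Dkk4 (-0.70 and -0.42) and Tiam1 (-0.81 and -0.03). Given the array median, r was -0.19 for Btrc and -0.18 for Wif1, and -0.63 to -0.70 for the other 3. The positive one, Ascl2, had an r of 0.69 and -0.09 without them, and was below the lower quartile of its array in 6 tumors. These genes were named after their values were seen.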
